A study of Bos taurus with 37 samples.

Results

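Autosomal gene expression was compared between 6 male SCNT-BLs and 6 male IVF-BLs, 12 of the 37 libraries of the series. SCNT-BLs are blastocysts grown from enucleated oocytes, each fused with a single male ear skin fibroblast, and IVF-BLs are blastocysts grown from oocytes fertilized in vitro. The SCNT embryos were activated after fusion and taken as blastocysts 6 to 8 days after nuclear transfer. The paper states that embryos of 60 to 80 blastomeres were chosen. It says so after describing nuclear transfer, without naming the IVF embryos apart. No age is recorded for the IVF embryos and no cell number for single embryos, so a difference in stage cannot be checked. Each embryo gave its own library, so an embryo was 1 replicate. Both groups were sequenced on 1 flow cell. The SCNT embryos share 1 source of nuclei, which gave a single donor library, whereas the IVF embryos had parents of their own. Nuclear transfer, with its fusion and activation, nuclear genotype and any difference in stage therefore cannot be told apart here. For orientation, values of some genes are also given for other embryos. These are 6 male sham NT-BLs, fertilized zygotes that lost the polar body and some ooplasm to a micropipette and were then activated. Also used are 12 female embryos, 6 SCNT-BLs and 6 IVF-BLs, sequenced on the other flow cell. Of the 22628 rows of the expression table, 21610 were taken as autosomal, and the 14333 with a mean over 0.1 FPKM in the 12 male embryos were tested. FPKM are mapped fragments scaled by the length of the transcript and the size of the library, so a level does not depend on transcript length.

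In nuclear transfer the oocyte has to replace the expression program of a differentiated nucleus with that of an embryo. By the blastocyst stage the embryo has formed an outer trophectoderm, which pumps fluid into the cavity and later makes the fetal part of the placenta, and an inner cell mass, which splits into epiblast and primitive endoderm. Transcription factors such as CDX2 and GATA3 mark trophectoderm, NANOG and SOX2 mark inner cell mass and epiblast, and GATA6 and SOX17 mark primitive endoderm. POU5F1, a pluripotency factor, is listed below with the inner cell mass genes. Its level in trophectoderm was not measured apart. The bovine blastocyst also runs on a heavy load of translation, oxidative phosphorylation and lipid metabolism.

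Detection and depth overlapped between the groups. Male IVF-BLs held 12926 to 13538 autosomal rows above 0 and SCNT-BLs 12764 to 13807, and summed FPKM ran from 479206 to 531973 and from 484271 to 540215. Read counts are unknown from FPKM. The steps between low values gave relative depths of 0.774 to 1 in IVF-BLs and 0.646 to 0.966 in SCNT-BLs, with IVF-BL 1 set to 1. Y-linked UTY, a check of the sex on the labels, had 3.74 to 7.68 FPKM in IVF-BLs and 2.90 to 13.7 FPKM in SCNT-BLs, against at most 0.0632 FPKM in any of the 12 female embryos. Keratins KRT8 and KRT18, which fill the trophectoderm, had at least 1246 and 1539.9 FPKM in every male embryo. Of the genes that define fibroblasts, COL3A1 reached 0.0251 FPKM in SCNT-BLs and 0.0202 FPKM in IVF-BLs, against 3848 FPKM in the male donor cells, and LUM, DCN and TWIST1 stayed under 1 FPKM in all 12 embryos. Others were detected at low levels: COL1A2 ran from 2.46 to 7.16 FPKM in IVF-BLs and from 1.70 to 6.42 FPKM in SCNT-BLs, against 3929 FPKM in the donor cells, THY1 reached 5.54 and 1.01 FPKM, against 270.4 FPKM, and COL1A1 reached 1.88 and 0.786 FPKM, against 2112 FPKM.

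A gene was called when its adjusted p was under 0.05 in limma on log2(FPKM + 1). By this rule 483 autosomal genes were higher (3.37% of 14333) and 532 were lower (3.71%) in male SCNT-BLs, 1015 in all (7.08%). The called genes moved by a median of 1.03 upward and -1.15 downward on the log2 scale, and 257 of the higher and 351 of the lower calls moved by more than 1. The median shift of all tested genes was -0.015. In 237 of the higher and 289 of the lower calls the groups did not overlap, meaning that every SCNT embryo lay on one side of every IVF embryo. Over all tested genes, called or not, 618 (4.31%) had groups that did not overlap, 276 upward (1.93%) and 342 downward (2.39%). Without each embryo in turn, 256 of the higher and 297 of the lower calls held in all 12 fits. SCNT-BL 1 moved the count of higher genes most, to 320 without it. TE and ICM were not separated in these embryos, so fewer cells of a type and less RNA per cell cannot be told apart in any value below.

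Calls were more frequent among abundant genes. They made up 0.238% of the tested genes with a mean of 0.1 to 1 FPKM, 3.84% of those from 1 to 10 FPKM, 13.8% of those from 10 to 100 FPKM and 24.5% of those at 100 FPKM and over. Calls in the lists below, such as ribosomal proteins, are to be read beside these shares and the 7.08% of all tested genes. Genes over 10 FPKM in the donor fibroblasts were called higher in 6.18% and lower in 5.67% of 5628 cases. Genes under 0.1 FPKM in the donor cells were called higher in 0.649% and lower in 2.16% of 2310 cases. Whether the shares by donor level differ apart from abundance in the blastocyst was not tested.

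**Figure D1:**
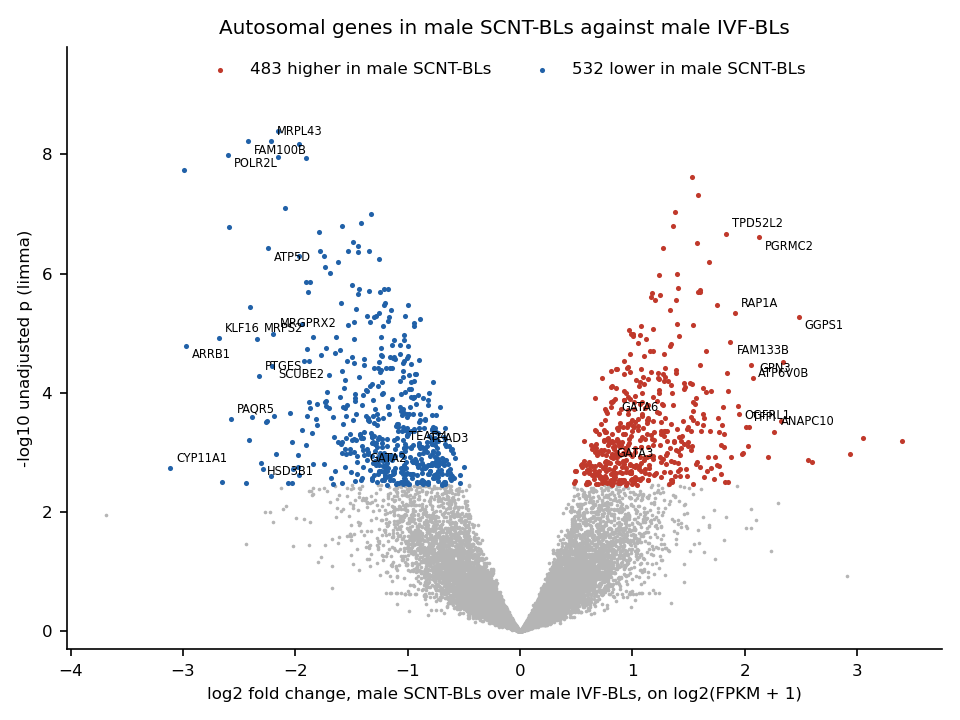
Each point is 1 of the 14333 autosomal genes tested. The x axis gives the log2 fold change of male SCNT-BLs over male IVF-BLs on log2(FPKM + 1) and the y axis -log10 of limma's unadjusted p. The 483 red and 532 blue points passed an adjusted p of 0.05, and the labelled genes are called genes that the text names. Shifts reached about the same size on both sides.

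Among the genes with the largest shifts that held without each embryo, with a symbol in 1 row and groups that did not overlap, 10 rises and 10 falls are described here. GGPS1, which makes the geranylgeranyl lipid used to anchor small GTPases, ran from 1.67 to 14.03 FPKM (median 4.61) in IVF-BLs and from 18.2 to 53.8 FPKM (median 31.9) in SCNT-BLs. The groups did not overlap, and the log2 fold change was 2.48 (SE 0.37, adjusted p = 0.00105). RAP1A, a small GTPase that carries such a lipid, ran from 14.2 to 52.3 FPKM (median 31.5) in IVF-BLs and from 72.3 to 208 FPKM (median 110.23) in SCNT-BLs. It rose by 1.91 (SE 0.28, adjusted p = 0.000990), again with no overlap. PGRMC2, a heme-binding membrane protein named for its likeness to a progesterone receptor component, ran from 9.21 to 25.6 FPKM (median 12.2) in IVF-BLs and from 41.2 to 89.6 FPKM (median 70.8) in SCNT-BLs. Its shift was 2.12 (SE 0.25, adjusted p = 0.000183). GPN3, a GTPase that helps bring RNA polymerase II into the nucleus, ran from 1.90 to 8.22 FPKM (median 3.92) in IVF-BLs and from 10.4 to 43.3 FPKM (median 22.03) in SCNT-BLs, with a log2 fold change of 2.07 (SE 0.38, adjusted p = 0.00446). The other 6 genes of this kind, with log2 fold changes from 1.83 to 2.26, were ANAPC10, a subunit of the anaphase-promoting complex, ATP6V0B, a subunit of the vacuolar proton pump, TFPI, an inhibitor of blood clotting, OGFRL1, FAM133B and TPD52L2. TFPI was listed at 0 in IVF-BL 4 and reached 5.85 FPKM in the other IVF-BLs. SCNT-BLs ran from 5.99 to 25.8 FPKM (median 14.9) for this gene. Sham NT-BLs ran from 11.97 to 64.7 FPKM (median 31.1) for GGPS1 and from 45.6 to 109 FPKM (median 79.5) for RAP1A. They ran from 11.1 to 45.8 FPKM (median 30.2) for PGRMC2 and from 13.6 to 53.5 FPKM (median 22.1) for GPN3. Their FAM133B range, 218 to 367 FPKM, lay above every IVF embryo. Their TFPI range, 2.59 to 5.47 FPKM, lay under every SCNT embryo.

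On the lower side, POLR2L, a small subunit shared by the nuclear RNA polymerases, had 1076, 842, 689, 904, 534 and 992 FPKM in IVF-BLs 1 to 6 and 70.8, 121, 173, 139, 126 and 221 FPKM in SCNT-BLs 1 to 6. Every SCNT embryo was below every IVF embryo, and POLR2L fell by 2.60 (SE 0.24, adjusted p = 2.47e-05) on the log2 scale. ARRB1, which encodes beta-arrestin 1 and turns off G-protein-coupled receptors, ran from 40.7 to 155 FPKM (median 76.8) in IVF-BLs and from 1.27 to 24.1 FPKM (median 11.6) in SCNT-BLs. Its log2 fold change was -2.98 (SE 0.49, adjusted p = 0.00214). Sham NT-BLs, from 37.99 to 102 FPKM (median 72.2), overlapped the IVF-BLs and lay above every SCNT embryo. FAM100B ran from 30.04 to 49.8 FPKM (median 37.3) in IVF-BLs and from 3.72 to 7.78 FPKM (median 7.003) in SCNT-BLs, a shift of -2.42 (SE 0.22, adjusted p = 2.47e-05), with sham NT-BLs from 6.22 to 13.2 FPKM (median 8.98), under every IVF embryo. KLF16, a zinc finger transcription factor, ran from 3.04 to 24.9 FPKM (median 11.7) in IVF-BLs and from 0 to 1.80 FPKM (median 1.11) in SCNT-BLs, a shift of -2.68 (SE 0.43, adjusted p = 0.00175). The other 6, with log2 fold changes from -2.58 to -2.20, were PAQR5, a membrane progestin receptor, SCUBE2, a secreted protein that helps release Hedgehog ligands, MRGPRX2, a G-protein-coupled receptor, and the mitochondrial genes MRPS2, ATP5D and MRPL43. In PAQR5 the SCNT-BLs stayed under 1 FPKM and the IVF-BLs spread from 0.818 to 26.5 FPKM (median 4.50). Sham NT-BLs ran from 278 to 552 FPKM (median 397) for POLR2L and from 1.31 to 8.84 FPKM (median 5.26) for KLF16. For MRPS2 they ran from 0.749 to 1.80 FPKM (median 1.18), under every IVF embryo.

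Trophectoderm transcription factors moved in both directions. Of 21 tested, 1 was called higher and 3 lower, with a list median of -0.22. GATA3, which specifies trophoblast together with CDX2, ran from 61.5 to 156 FPKM (median 96.7) in IVF-BLs and from 148 to 246 FPKM (median 165) in SCNT-BLs. IVF-BL 4, the highest of its group, was the only IVF embryo to reach the SCNT range, and GATA3 rose by 0.80 (SE 0.21, adjusted p = 0.0306). CDX2, the founder factor of the lineage, ran from 8.71 to 40.6 FPKM (median 22.4) in IVF-BLs and from 30.2 to 58.8 FPKM (median 45.2) in SCNT-BLs, a difference just short of the threshold (log2 fold change 0.95, SE 0.28, adjusted p = 0.0528). GATA2, a partner of GATA3 in trophoblast genes, went down, from 3.89 to 12.7 FPKM (median 7.68) in IVF-BLs and from 0.871 to 4.32 FPKM (median 2.54) in SCNT-BLs, a shift of -1.40 (SE 0.34, adjusted p = 0.0225). TEAD4 is a DNA-binding partner of YAP in the Hippo pathway. It ran from 42.2 to 72.4 FPKM (median 51.7) in IVF-BLs and from 15.7 to 41.9 FPKM (median 26.1) in SCNT-BLs, with no overlap and a shift of -1.04 (SE 0.23, adjusted p = 0.0143). TEAD3, of the same family, ran from 91.4 to 196 FPKM (median 116) in IVF-BLs and from 51.1 to 86.1 FPKM (median 63.7) in SCNT-BLs, also apart (-0.86, SE 0.21, adjusted p = 0.0217). These TEAD genes were the 2 called among 18 Hippo-YAP genes tested, whose median was 0.0088. The call of GATA2 was lost without IVF-BL 1 or SCNT-BL 1 (adjusted p up to 0.0532), that of TEAD3 without IVF-BL 2 or SCNT-BLs 1 or 5 (adjusted p up to 0.0525) and that of GATA3 without IVF-BLs 1, 2, 3 or 5 or SCNT-BLs 1, 3 or 5 (adjusted p up to 0.0670). TEAD4 held without each embryo. TFAP2A, TFAP2C and ELF3 had log2 fold changes of -0.64, -0.34 and -0.88 with adjusted p-values of 0.578, 0.413 and 0.318.

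Trophoblast secreted genes showed 1 call among 12 tested, and 17 of the 40 rows of that list were at 0 in all 12 embryos. SSLP1, a small secreted protein, ran from 70.5 to 131 FPKM (median 105) in IVF-BLs and from 92.2 to 276 FPKM (median 208) in SCNT-BLs and was higher by 0.94 (SE 0.23, adjusted p = 0.0237), a call lost without IVF-BLs 1 or 6 or SCNT-BLs 1, 4 or 5 (adjusted p up to 0.0535). Pregnancy-associated glycoprotein PAG2, one of a family of placental aspartic protease relatives, ran from 50.4 to 217 FPKM (median 69.2) in IVF-BLs and from 10.8 to 600.48 FPKM (median 114) in SCNT-BLs, and the SCNT-BLs spread on both sides of the IVF-BLs (log2 fold change -0.024, SE 0.73, adjusted p = 0.990). PTGS2, which makes the precursor of prostaglandins, ran from 339 to 1269 FPKM (median 758) in IVF-BLs and from 126 to 1230.4 FPKM (median 571) in SCNT-BLs, a shift of -0.67 (SE 0.54, adjusted p = 0.527). TKDP1, a trophoblast protease inhibitor, and PAG1 had log2 fold changes of 0.56 and 0.76, with adjusted p-values of 0.663 and 0.500.

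Steroid and prostaglandin synthesis genes included the lowest shift of any named gene. Of 17 tested, 3 were called lower (17.6%) and none higher, with a median of -0.33. In limma 6 were lower and 1 higher at an unadjusted p under 0.05. Calls took 7.08% of all tested genes, 13.8% from 10 to 100 FPKM and 24.5% at 100 FPKM and over. CYP11A1, which cuts the side chain of cholesterol as the first step to steroid hormones, had 98.7, 495, 301, 225, 382 and 151 FPKM in IVF-BLs 1 to 6 and 5.90, 6.14, 90.1, 123, 176 and 3.66 FPKM in SCNT-BLs 1 to 6. SCNT-BLs 1, 2 and 6 were far under every IVF embryo, SCNT-BL 3 was just under them and SCNT-BLs 4 and 5 lay within their range. Its log2 fold change was -3.12 (SE 0.84, adjusted p = 0.0340). HSD3B1, which acts next to give progesterone, ran from 15.5 to 187 FPKM (median 51.3) in IVF-BLs and from 1.99 to 27.8 FPKM (median 9.12) in SCNT-BLs, a shift of -2.31 (SE 0.60, adjusted p = 0.0304). PTGES, which makes prostaglandin E, ran from 36.3 to 69.2 FPKM (median 48.1) in IVF-BLs and from 3.28 to 46.9 FPKM (median 7.65) in SCNT-BLs, and only SCNT-BL 4 reached the IVF range. Its shift was -2.32 (SE 0.43, adjusted p = 0.00430), and it held without each embryo. The CYP11A1 call was lost without IVF-BLs 2, 3, 4 or 5 or SCNT-BLs 1, 2 or 6 (adjusted p up to 0.0786) and the HSD3B1 call without IVF-BLs 2, 3 or 5 or SCNT-BLs 1, 2, 3 or 6 (adjusted p up to 0.0656). Sham NT-BLs ran from 11.5 to 236 FPKM (median 23.9) for CYP11A1, from 0.750 to 142 FPKM (median 29.7) for HSD3B1 and from 25.3 to 412 FPKM (median 62.4) for PTGES.

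Of 17 inner cell mass and epiblast genes, 2 were called lower and none higher (median -0.12; in limma 3 lower and 0 higher at an unadjusted p under 0.05). POU5F1, the core pluripotency factor, ran from 33.9 to 73.2 FPKM (median 49.2) in IVF-BLs and from 35.1 to 80.3 FPKM (median 53.8) in SCNT-BLs, ranges that overlapped over most of their length (log2 fold change 0.13, SE 0.23, adjusted p = 0.778). SOX2, its partner, ran from 9.81 to 24.8 FPKM (median 16.3) in IVF-BLs and from 5.49 to 40.4 FPKM (median 15.1) in SCNT-BLs, with -0.17 (SE 0.45, adjusted p = 0.860). NANOG was listed at 0 in 1 IVF-BL and 2 SCNT-BLs and reached 18.7 and 15.9 FPKM, so both groups spread from 0 upward (-0.46, SE 0.85, adjusted p = 0.795). KLF4, a pluripotency factor that is also found in epithelia, ran from 13.9 to 28.8 FPKM (median 19.5) in IVF-BLs and from 4.48 to 14.3 FPKM (median 6.91) in SCNT-BLs, a shift of -1.23 (SE 0.30, adjusted p = 0.0212). TFCP2L1, a factor of naive pluripotency, ran from 31.3 to 53.3 FPKM (median 45.2) in IVF-BLs and from 21.9 to 32.1 FPKM (median 24.9) in SCNT-BLs, with -0.68 (SE 0.18, adjusted p = 0.0307). The KLF4 call was lost without SCNT-BL 1 (adjusted p up to 0.0510) and the TFCP2L1 call without IVF-BLs 1, 2, 5 or 6 or SCNT-BLs 3, 4, 5 or 6 (adjusted p up to 0.0690). KLF17 had a log2 fold change of 0.41 (SE 0.41, adjusted p = 0.613).

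Primitive endoderm genes gave 1 call in each direction among 19 tested. GATA6, which starts the primitive endoderm program and is also found in trophectoderm, had 109, 106, 112, 91.98, 114 and 105 FPKM in IVF-BLs 1 to 6 and 199, 241, 131, 149.58, 216 and 243 FPKM in SCNT-BLs 1 to 6. All SCNT-BLs were above all IVF-BLs, with a log2 fold change of 0.85 (SE 0.17, adjusted p = 0.00737), and the call held without each embryo. GATA6 was at 0.0906 FPKM in the donor cells and ran from 66.9 to 116 FPKM (median 76.1) in sham NT-BLs. GATA4, a later partner of GATA6, was at or under 3.51 FPKM in every embryo and had -1.04 (SE 0.37, adjusted p = 0.106). PDGFRA, HNF4A and RSPO3 had log2 fold changes of 0.19, 0.45 and 0.24, with adjusted p-values of 0.832, 0.783 and 0.843. SOX17, the other marker of the lineage, was listed at 0 in all 6 SCNT-BLs and in 3 of 6 IVF-BLs. Its highest IVF value was 1.09 FPKM, so it lay near 0 in most embryos, and no fold change is given for it.

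**Figure D2:**
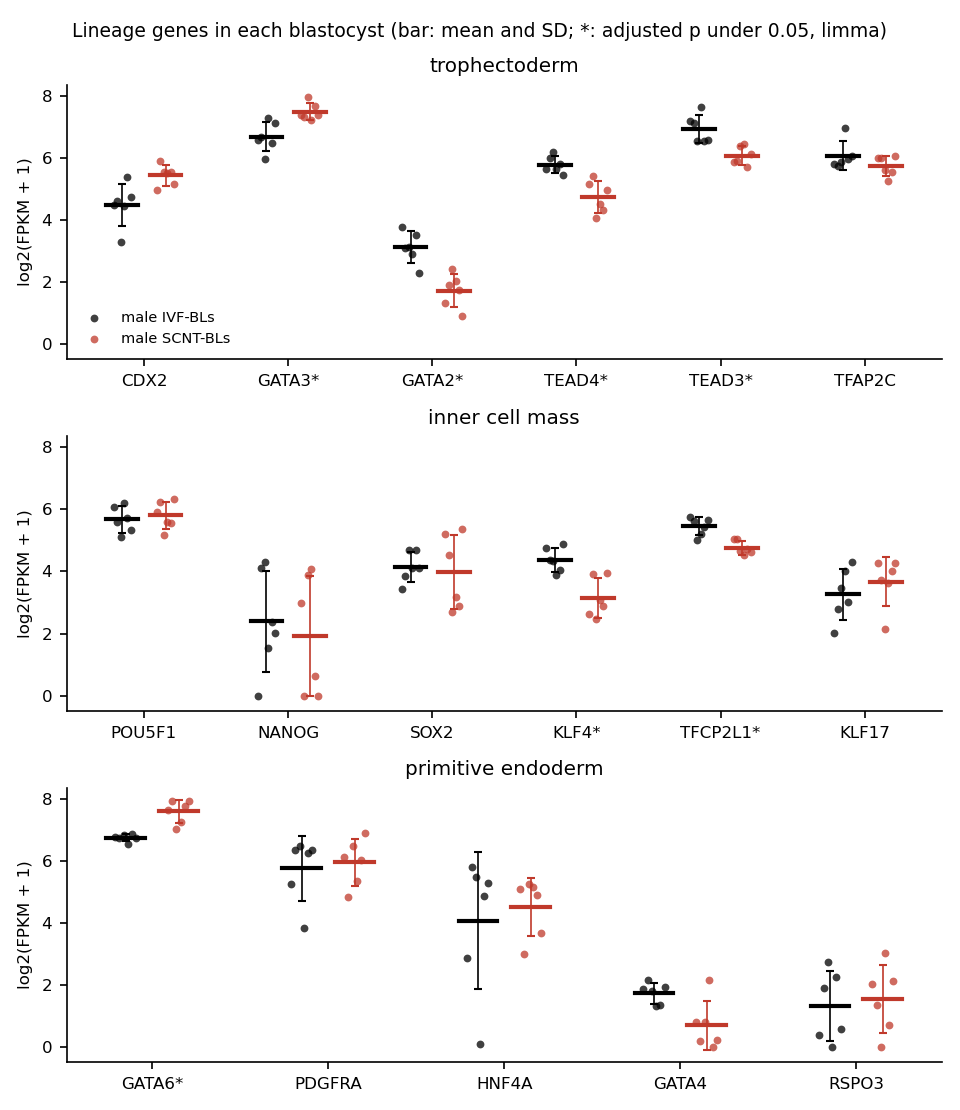
The y axis gives log2(FPKM + 1) of each embryo for 6 trophectoderm, 6 inner cell mass and 5 primitive endoderm genes, with IVF-BLs in black, SCNT-BLs in red and bars for the mean and SD of 6 embryos. Asterisks mark genes called by limma. GATA6 and TEAD4 show groups that do not overlap, POU5F1 nearly the same range in both, and NANOG a spread of embryos from 0 upward in both.

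Signals between these lineages gave no call in several lists. In limma none of 22 FGF-ERK genes, 26 Nodal, activin and BMP genes, 20 WNT genes and 12 interferon-stimulated genes was called, with 4, 2, 3 and 1 at an unadjusted p under 0.05. Their medians lay between -0.17 and 0.11. None of 19 fibroblast genes, 15 oocyte genes, 7 cumulus cell genes, 7 sperm genes and 5 blood cell genes was called either, with 0, 0, 1, 0 and 1 at an unadjusted p under 0.05. The summed level of the fibroblast list ran from 3092 to 5716 FPKM in IVF-BLs and from 1717 to 4773 FPKM in SCNT-BLs, against 34026 FPKM in the donor cells. Only 10 of its 31 rows had a mean over 1 FPKM in these embryos, so the embryo sums rest on those rows. Of 22 imprinted genes, expressed from one parental copy, none was called in limma and 1 had an unadjusted p under 0.05. The summed FPKM of that list ran from 298.9 to 348 in IVF-BLs and from 251 to 309.7 in SCNT-BLs.

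The epithelium of the trophectoderm is sealed by junctions and fills the cavity by ion pumps and aquaporins. Of 35 such genes, 3 were called lower and none higher, 8.57% of the list beside 7.08% of all tested genes. In limma 11 were lower and 3 higher at an unadjusted p under 0.05. JUP, which encodes the plakoglobin of desmosomes and adherens junctions, ran from 208 to 254 FPKM (median 215) in IVF-BLs and from 59.99 to 123 FPKM (median 99.97) in SCNT-BLs. The groups were apart and the shift was -1.20 (SE 0.17, adjusted p = 0.000777), while sham NT-BLs ran from 119 to 402 FPKM (median 212). CLDN7, a tight junction claudin, ran from 57.7 to 172 FPKM (median 159) in IVF-BLs and from 55.7 to 83.5 FPKM (median 69.2) in SCNT-BLs, a shift of -0.93 (SE 0.24, adjusted p = 0.0293). IVF-BL 4, the lowest of its group, was the one that overlapped the SCNT-BLs. PARD6B, a part of the polarity complex that sets inside from outside cells, ran from 14.1 to 33.05 FPKM (median 26.4) in IVF-BLs and from 8.50 to 18.7 FPKM (median 11.8) in SCNT-BLs (-0.88, SE 0.25, adjusted p = 0.0484). JUP held without each embryo, whereas the CLDN7 call was lost without IVF-BLs 2, 3, 5 or 6 or SCNT-BLs 4, 5 or 6 (adjusted p up to 0.0631) and the PARD6B call without IVF-BLs 1, 3, 4 or 5 or SCNT-BLs 2, 3, 4, 5 or 6 (adjusted p up to 0.103). None of 4 simple epithelial keratins was called in limma, and none had an unadjusted p under 0.05.

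Chromatin genes had scattered calls. Of 15 DNA methylation genes, MBD2, which binds methylated CpG sites, ran from 0.736 to 9.08 FPKM (median 2.94) in IVF-BLs and from 7.08 to 15.5 FPKM (median 7.76) in SCNT-BLs and rose by 1.38 (SE 0.39, adjusted p = 0.0413). TRIM28, the corepressor that protects methylation at imprinted genes, ran from 28.7 to 43.8 FPKM (median 33.6) in IVF-BLs and from 10.6 to 38.9 FPKM (median 15.9) in SCNT-BLs and fell by 0.92 (SE 0.27, adjusted p = 0.0486). GADD45B, a stress-induced gene linked to demethylation, fell by 1.42 (SE 0.40, adjusted p = 0.0452). These calls were near the threshold, and each was lost in 10 or 11 of the 12 fits without 1 embryo, with adjusted p-values of up to 0.103: MBD2 without IVF-BLs 1, 3, 4, 5 or 6 or SCNT-BLs 1, 2, 3, 4, 5 or 6 (adjusted p up to 0.0954), TRIM28 without IVF-BLs 1, 2, 3, 4, 5 or 6 or SCNT-BLs 1, 3, 4, 5 or 6 (adjusted p up to 0.103) and GADD45B without IVF-BLs 1, 2, 3, 4 or 6 or SCNT-BLs 1, 2, 3, 5 or 6 (adjusted p up to 0.0994). Among 14 H3K9 methylation genes, SETDB2, a methyltransferase of that residue, rose by 1.11 (SE 0.28, adjusted p = 0.0264), lost without IVF-BLs 2 or 3 or SCNT-BLs 1 or 6 (adjusted p up to 0.0582). In limma none of 15 histone deacetylases was called, with 3 at an unadjusted p under 0.05. KDM6B, which removes methyl groups from H3K27, was the 1 call among 28 Polycomb genes, from 7.46 to 13.97 FPKM (median 10.9) in IVF-BLs and from 2.71 to 6.25 FPKM (median 5.30) in SCNT-BLs, with -1.03 (SE 0.26, adjusted p = 0.0264) and groups apart. It was lost without IVF-BLs 2, 3 or 5 or SCNT-BL 1 (adjusted p up to 0.0658). SMARCC2, a core subunit of BAF remodelling complexes, was the 1 call among 32 remodellers and acetyltransferases and held without each embryo. It ran from 33.3 to 47.4 FPKM (median 43.1) in IVF-BLs and from 16.3 to 30.6 FPKM (median 20.3) in SCNT-BLs, with a shift of -0.95 (SE 0.19, adjusted p = 0.00727), and sham NT-BLs ran from 13.9 to 30.5 FPKM (median 19.6), also under every IVF embryo. Among 24 replication histone genes, HIST1H2AD, a histone H2A gene, was listed at 0 in SCNT-BLs 3, 4, 5 and 6 and stood at 2.35 to 13.5 FPKM in the IVF-BLs (-2.19, SE 0.47, adjusted p = 0.0112), and poly-A selection reaches few transcripts of such genes.

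The genes of cytosolic translation had many calls in both directions. Of 79 cytosolic ribosomal protein genes, 7 were called higher and 19 lower, 32.9% of the list beside 24.5% of all genes at 100 FPKM and over, and the list median was -0.20. Among RPL genes of the large subunit 2 rose and 12 fell of 46 (median -0.30), and among RPS genes of the small subunit 5 rose and 7 fell of 31 (median -0.0052). RPS16 ran from 1257 to 1829 FPKM (median 1459) in IVF-BLs and from 379.899 to 747 FPKM (median 538) in SCNT-BLs, with groups apart and -1.49 (SE 0.18, adjusted p = 0.000203). RPL12 ran from 972 to 1950.3 FPKM (median 1269) in IVF-BLs and from 439.72 to 685 FPKM (median 504) in SCNT-BLs, also apart (-1.36, SE 0.20, adjusted p = 0.00105). RPS3A went the other way, from 735 to 1272 FPKM (median 1048) in IVF-BLs and from 1867 to 2308 FPKM (median 2096) in SCNT-BLs, with no overlap (1.07, SE 0.17, adjusted p = 0.00169). RPS14 had 588, 648, 1261, 1159, 1086 and 724 FPKM in IVF-BLs 1 to 6 and 4949.6, 5671, 5027, 4184, 3429.9 and 729.59 FPKM in SCNT-BLs 1 to 6. Its 5 high SCNT embryos and 1 within the IVF range gave 1.95 (SE 0.41, adjusted p = 0.0107).

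Of the 26 ribosomal protein calls, 18 held without each embryo. The higher ones that held were RPL24, RPS20, RPS3A, RPS14 and RPS6, with log2 fold changes of 1.23, 1.60, 1.07, 1.95 and 1.07. Among the lower ones that held were RPL7A, RPL12, RPL8, RPS25, RPS16, RPL28, RPL11, RPS18, RPS2, RPS15A, RPL15 and RPLP2, from -1.57 for RPLP2 to -0.78 for RPL15. The rest were lost without 1 embryo: RPL4 without IVF-BLs 1, 2, 5 or 6 or SCNT-BLs 1, 2, 4 or 5 (adjusted p up to 0.0862), RPS27A without IVF-BLs 2, 3, 5 or 6 or SCNT-BLs 1, 2, 4 or 6 (adjusted p up to 0.0859), RPL27A without IVF-BLs 3, 4 or 5 or SCNT-BLs 1, 3 or 5 (adjusted p up to 0.0627), RPL13A without IVF-BL 3 or SCNT-BLs 4 or 5 (adjusted p up to 0.0577), RPS9 without IVF-BLs 1, 3, 4, 5 or 6 or SCNT-BLs 1, 3, 4, 5 or 6 (adjusted p up to 0.0867), RPL23A without IVF-BLs 1 or 3 (adjusted p up to 0.0564), RPL27 without SCNT-BLs 4 or 5 (adjusted p up to 0.0527) and RPL37A without IVF-BL 2 or SCNT-BLs 1 or 5 (adjusted p up to 0.0546). Ribosomal protein genes have many near-identical processed copies in mammalian genomes, so the split of reads between a gene and its copies leaves single genes of this family uncertain. The summed FPKM of the list ran from 34362 to 44283 in IVF-BLs and from 29803 to 43975 in SCNT-BLs, ranges that overlapped.

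Translation initiation factors split as well, with 4 higher and 6 lower of 41 and a median of 0.031. The calls made up 24.4% of the list, beside 13.8% of all tested genes from 10 to 100 FPKM and 24.5% at 100 FPKM and over. EIF3J, a loosely bound subunit of initiation factor 3 that governs mRNA entry, ran from 48.3 to 83.4 FPKM (median 61.9) in IVF-BLs and from 162 to 231 FPKM (median 195) in SCNT-BLs, with groups apart and 1.58 (SE 0.16, adjusted p = 7.08e-05). EIF6, which keeps the ribosomal subunits from joining early, ran from 103 to 165 FPKM (median 112) in IVF-BLs and from 37.3 to 67.5 FPKM (median 39.5) in SCNT-BLs, apart in the other direction (-1.44, SE 0.18, adjusted p = 0.000211). Within initiation factor 3, EIF3D, EIF3G, EIF3K and EIF3L were called lower (-0.84, -0.73, -0.63 and -0.71) and EIF3J higher, of 13 EIF3 rows tested. EIF4H rose by 0.63 and held without each embryo, as did the calls of EIF3D and EIF3L. The calls of EIF4A3 (0.66), EIF4B (0.70) and EIF1 (-1.04) were lost without IVF-BLs 1, 2, 3, 5 or 6 or SCNT-BLs 1, 2, 3 or 6 (adjusted p up to 0.0897), without IVF-BLs 1, 2, 3, 5 or 6 or SCNT-BLs 1, 2 or 6 (adjusted p up to 0.0742) and without IVF-BL 2 or SCNT-BL 1 (adjusted p up to 0.0537), and those of EIF3G and EIF3K without IVF-BLs 1, 4 or 6 or SCNT-BLs 1, 3, 4 or 5 (adjusted p up to 0.0640) and without IVF-BLs 1, 2, 3, 4, 5 or 6 or SCNT-BLs 1, 3, 4, 5 or 6 (adjusted p up to 0.0884). Among 36 aminoacyl-tRNA synthetase genes, which charge tRNAs, 3 were lower and none higher (in limma 5 lower and 1 higher at an unadjusted p under 0.05). QARS, for glutamine, fell by 0.89 (SE 0.19, adjusted p = 0.0120) and held without each embryo. CARS, for cysteine, fell by 1.19 and WARS, for tryptophan, fell by 0.64, calls lost without IVF-BLs 1 or 6 or SCNT-BLs 1, 3, 4 or 5 (adjusted p up to 0.0699) and without IVF-BLs 1, 2, 4 or 6 or SCNT-BLs 1, 4, 5 or 6 (adjusted p up to 0.0691).

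Mitochondrial energy genes were called in both directions too. Of 76 oxidative phosphorylation subunits, 6 were higher and 10 lower, 21.1% of the list, with a median of -0.12. Of all tested genes, 13.8% of those from 10 to 100 FPKM and 24.5% of those at 100 FPKM and over were called. Complex I, which takes electrons from NADH, had 6 lower and 0 higher calls of 36 subunits (median -0.26). Complex III had 3 higher and 1 lower of 9, complex IV 1 and 1 of 12 and ATP synthase 2 and 2 of 15, while none of 4 complex II genes was called in limma and 1 had an unadjusted p under 0.05. NDUFA7 of complex I ran from 202 to 354 FPKM (median 224) in IVF-BLs and from 78.2 to 127 FPKM (median 102) in SCNT-BLs, with groups apart and -1.21 (SE 0.17, adjusted p = 0.000578). NDUFB4, NDUFA8, NDUFA9 and NDUFA11 fell by similar amounts (-1.24, -1.04, -0.94 and -1.10) and held without each embryo, and NDUFS7 (-1.03) was lost without IVF-BLs 1, 2, 3 or 6 or SCNT-BLs 1, 2, 3, 4, 5 or 6 (adjusted p up to 0.0989). COX8A, the smallest subunit of cytochrome oxidase, ran from 1351 to 1873 FPKM (median 1645) in IVF-BLs and from 509.89 to 1067 FPKM (median 596) in SCNT-BLs, apart by -1.28 (SE 0.19, adjusted p = 0.00105).

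ATP synthase held opposite members. ATP5D, the delta subunit of its rotor stalk, ran from 30.2 to 59.5 FPKM (median 47.7) in IVF-BLs and from 4.39 to 14.5 FPKM (median 8.72) in SCNT-BLs, with a log2 fold change of -2.24 (SE 0.27, adjusted p = 0.000209). ATP5C1, the gamma subunit of the same stalk, ran from 879 to 1559 FPKM (median 1352) in IVF-BLs and from 1793 to 2914 FPKM (median 2218) in SCNT-BLs, with 0.82 (SE 0.19, adjusted p = 0.0163). Neither pair of groups overlapped. ATP5O fell by 1.11 and ATP5J2 rose by 1.70, calls lost without IVF-BLs 1 or 6 or SCNT-BLs 3, 4 or 5 (adjusted p up to 0.0562) and without IVF-BLs 5 or 6 or SCNT-BLs 2, 3, 5 or 6 (adjusted p up to 0.0771). In complex III the core proteins UQCRC1 (0.79) and UQCRC2 (0.67) were higher and UQCR10 (-1.65) was lower, and these held without each embryo. UQCRB (1.12) and COX5B of complex IV (0.57) were higher, but lost without IVF-BLs 2, 3 or 6 or SCNT-BLs 1, 2, 3, 4, 5 or 6 (adjusted p up to 0.0800) and without IVF-BLs 2, 3, 4 or 5 or SCNT-BLs 1, 4 or 6 (adjusted p up to 0.0626).

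Of 75 mitochondrial ribosomal proteins, which translate the mitochondrial genome's own subunits, 4 were higher and 6 lower (median 0.053). This was 13.3% of the list, beside 7.08% of all tested genes and 13.8% of those from 10 to 100 FPKM. MRPL43 ran from 86.9 to 130.38 FPKM (median 124) in IVF-BLs and from 13.9 to 34.2 FPKM (median 25.4) in SCNT-BLs, apart by -2.22 (SE 0.20, adjusted p = 2.47e-05), and MRPS2 ran from 5.20 to 27.7 FPKM (median 13.98) in IVF-BLs and from 0.899 to 4.57 FPKM (median 1.78) in SCNT-BLs, apart by -2.34 (SE 0.38, adjusted p = 0.00178). MRPL20 (-1.70) and MRPS10 (-1.01) fell and MRPS35 (1.07) rose, and these held without each embryo. MRPL37 (-0.75) was lost without IVF-BL 2 (adjusted p up to 0.0501), MRPL18 (-1.28) without IVF-BLs 1, 2, 4 or 6 or SCNT-BLs 1, 4 or 5 (adjusted p up to 0.0673), MRPL19 (1.88) without IVF-BL 6 or SCNT-BLs 1, 2 or 5 (adjusted p up to 0.0611), MRPS18C (1.82) without IVF-BLs 1, 2, 5 or 6 or SCNT-BLs 1, 2, 3, 5 or 6 (adjusted p up to 0.0988) and MRPL50 (1.35) without IVF-BLs 1, 2 or 4 or SCNT-BLs 1, 2, 3, 4 or 6 (adjusted p up to 0.102).

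Glycolysis had 1 call each way among 19 enzymes. LDHA, which turns pyruvate into lactate, ran from 11.4 to 31.2 FPKM (median 22.99) in IVF-BLs and from 25.04 to 91.7 FPKM (median 55.2) in SCNT-BLs and rose by 1.31 (SE 0.30, adjusted p = 0.0154). PFKL, a phosphofructokinase at the committed step, ran from 44.3 to 66.4 FPKM (median 59.3) in IVF-BLs and from 20.5 to 38.1 FPKM (median 29.7) in SCNT-BLs, apart by -1.003 (SE 0.17, adjusted p = 0.00289). LDHA was at 354 FPKM in the donor cells and PFKL at 133 FPKM. Both calls held without each embryo. In limma none of 11 glucose and lactate transporters was called, with 3 at an unadjusted p under 0.05.

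**Figure D3:**
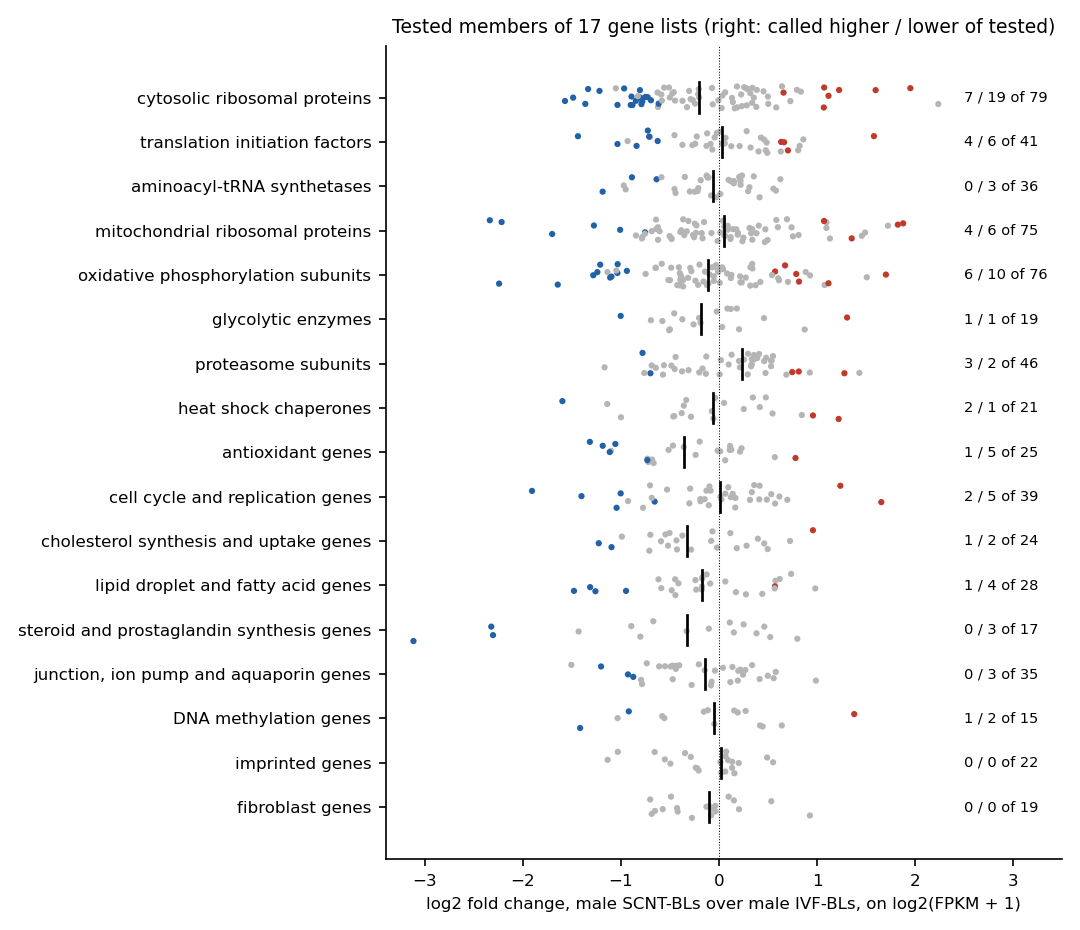
Each point is a tested member of 1 of 17 gene lists, placed on the x axis by its log2 fold change of male SCNT-BLs over male IVF-BLs and scattered vertically within its list. Red and blue points were called higher and lower, grey points were not called, black bars are medians and the numbers at the right give calls higher and lower of those tested. Ribosomal proteins and oxidative phosphorylation subunits have called members on both sides, with 7 and 19 and with 6 and 10.

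Lipid genes had more lower than higher calls. Of 28 lipid droplet and fatty acid genes, 1 was higher and 4 were lower (17.9% called, median -0.17). Of 24 cholesterol genes 1 was higher and 2 were lower (12.5% called, median -0.33). Among all tested genes 7.08% were called, with 13.8% from 10 to 100 FPKM and 24.5% at 100 FPKM and over. FASN, the fatty acid synthase, ran from 95.6 to 169 FPKM (median 123) in IVF-BLs and from 45.8 to 94.8 FPKM (median 62.6) in SCNT-BLs, apart by -0.95 (SE 0.20, adjusted p = 0.0107). SCD, which desaturates its products, ran from 49.2 to 132 FPKM (median 97.1) in IVF-BLs and from 11.3 to 60.1 FPKM (median 29.99) in SCNT-BLs (-1.48, SE 0.35, adjusted p = 0.0184). PLIN3, a coat protein of lipid droplets, ran from 48.7 to 113 FPKM (median 86.8) in IVF-BLs and from 19.96 to 39.4 FPKM (median 37.2) in SCNT-BLs, apart by -1.26 (SE 0.24, adjusted p = 0.00544). FADS2, a desaturase of polyunsaturated fatty acids, fell by 1.32 and ACSL3, which activates fatty acids, rose by 0.57, calls lost without IVF-BLs 1, 2, 3, 5 or 6 or SCNT-BLs 1, 2, 5 or 6 (adjusted p up to 0.0916) and without IVF-BLs 1, 4, 5 or 6 or SCNT-BLs 3, 4, 5 or 6 (adjusted p up to 0.0816). In the cholesterol pathway SCAP, the sensor that releases SREBP transcription factors, ran from 7.85 to 13.4 FPKM (median 9.69) in IVF-BLs and from 2.88 to 5.52 FPKM (median 4.23) in SCNT-BLs, apart by -1.10 (SE 0.26, adjusted p = 0.0179). Of the last steps of synthesis, DHCR7 fell by 1.23 (SE 0.24, adjusted p = 0.00647) and SC5DL, which acts just before it, rose by 0.96 (SE 0.21, adjusted p = 0.0134). FASN, SCD, PLIN3, SCAP, DHCR7 and SC5DL held without each embryo. Sham NT-BLs ran from 85.1 to 176 FPKM (median 131) for FASN, from 5.21 to 30.7 FPKM (median 9.55) for SCD and from 82.9 to 212 FPKM (median 152) for PLIN3.

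Antioxidant genes gave 5 lower and 1 higher calls of 25 (24%), with a median of -0.36. For all tested genes the share was 7.08%, with 13.8% from 10 to 100 FPKM and 24.5% at 100 FPKM and over. GSTP1, a glutathione transferase, ran from 136 to 232 FPKM (median 185) in IVF-BLs and from 58.995 to 113 FPKM (median 83.3) in SCNT-BLs, apart by -1.12 (SE 0.19, adjusted p = 0.00294). KEAP1, which marks the antioxidant regulator NRF2 for breakdown, ran from 5.88 to 18.3 FPKM (median 10.8) in IVF-BLs and from 2.54 to 5.58 FPKM (median 3.65) in SCNT-BLs, apart by -1.32 (SE 0.31, adjusted p = 0.0174). NFE2L2, the gene of NRF2 itself, fell by 0.73, so a regulator and its inhibitor were both called lower. The peroxiredoxin PRDX5 fell by 1.19 and held without each embryo, as KEAP1 and GSTP1 did. NFE2L2 was lost without IVF-BLs 2, 3, 4 or 5 or SCNT-BLs 1, 5 or 6 (adjusted p up to 0.0743), the lipid peroxidase GPX4 (-1.06) without IVF-BLs 1, 2, 3 or 6 or SCNT-BLs 1, 3, 4 or 5 (adjusted p up to 0.0766) and PRDX6, the 1 that rose (0.78), without IVF-BLs 3 or 5 or SCNT-BLs 2 or 6 (adjusted p up to 0.0618).

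Among 21 heat shock chaperones, the mitochondrial HSPA9 and HSPE1 were higher and the cytosolic HSPB1 was lower. HSPA9 ran from 158 to 228 FPKM (median 203) in IVF-BLs and from 271 to 488 FPKM (median 399) in SCNT-BLs, apart by 0.96 (SE 0.17, adjusted p = 0.00357). HSPE1 ran from 51.2 to 149 FPKM (median 70.4) in IVF-BLs and from 109 to 249 FPKM (median 202) in SCNT-BLs (1.22, SE 0.25, adjusted p = 0.00774), and HSPB1 ran from 148 to 461 FPKM (median 251) in IVF-BLs and from 59.1 to 136 FPKM (median 73.9) in SCNT-BLs, apart by -1.60 (SE 0.27, adjusted p = 0.00236). These 3 calls held without each embryo. Of 25 integrated stress response genes the amino acid transporter SLC7A5 was called (-0.95), lost without IVF-BLs 1, 2, 4 or 6 or SCNT-BLs 1, 4, 5 or 6 (adjusted p up to 0.0854), and of 20 endoplasmic reticulum chaperone genes CRELD2 (-1.42, SE 0.33, adjusted p = 0.0169), which held. Of 25 p53 target and apoptosis genes BCL2L1, a protector against apoptosis, was called (-0.78), lost without IVF-BLs 2, 3, 4 or 5 or SCNT-BLs 1, 3, 4 or 5 (adjusted p up to 0.0683).

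Of 39 cell cycle and replication genes, 2 were higher and 5 lower (17.9%). The share called was 7.08% over all tested genes, 13.8% from 10 to 100 FPKM and 24.5% at 100 FPKM and over. MCM5, a subunit of the MCM helicase that opens DNA for replication, had 124, 92.3, 106, 131, 88.2 and 110.31 FPKM in IVF-BLs 1 to 6 and 25.01, 28.9, 18.5, 31.2, 29.9 and 37.8 FPKM in SCNT-BLs 1 to 6. The groups were well apart and MCM5 fell by 1.91 (SE 0.18, adjusted p = 2.47e-05). MCM2, of the same ring, fell by 1.05 (SE 0.25, adjusted p = 0.0185). GMNN, which encodes geminin and blocks a new loading of that helicase, went up, from 32.8 to 123 FPKM (median 65.6) in IVF-BLs and from 163 to 293 FPKM (median 196) in SCNT-BLs (1.66, SE 0.28, adjusted p = 0.00247). CDC20, an activator of the anaphase-promoting complex, fell by 1.003 and the cyclin CCND2 fell by 1.40. MCM4 stood in 2 rows that moved in opposite directions, one from 26.8 to 52.7 FPKM (median 35.5) in IVF-BLs and from 50.6 to 126 FPKM (median 93.2) in SCNT-BLs (1.24) and the other from 344 to 541 FPKM (median 365) and from 197 to 338 FPKM (median 231) (-0.66), so no direction can be given for this gene. The second MCM4 row was lost without IVF-BLs 1 or 2 or SCNT-BLs 2, 3, 4 or 5 (adjusted p up to 0.0688), and the other 6 calls of the list held without each embryo.

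The remaining lists had few calls among many members. Of 46 proteasome subunits 3 rose, PSMA4 (1.28), PSME4 (0.81) and PSMD12 (0.75), and 2 fell, PSMD3 (-0.78) and PSMA7 (-0.70), the last lost without IVF-BLs 1, 2, 3 or 6 or SCNT-BLs 3, 4, 5 or 6 (adjusted p up to 0.0665). Of 51 splicing factors and hnRNPs SRSF5 rose by 1.18 (SE 0.20, adjusted p = 0.00247) and held, HNRNPC rose by 0.89 and SNRPF, SF3A2 and SF3B4 fell, with log2 fold changes of -0.83, -0.91 and -0.67. HNRNPC was lost without IVF-BLs 2, 5 or 6 or SCNT-BLs 4, 5 or 6 (adjusted p up to 0.0590), SNRPF without IVF-BL 2 or SCNT-BLs 3 or 5 (adjusted p up to 0.0558), SF3A2 without IVF-BLs 1, 4 or 6 or SCNT-BLs 1, 3, 4, 5 or 6 (adjusted p up to 0.0757) and SF3B4 without IVF-BLs 1, 2, 3, 4 or 6 or SCNT-BLs 1, 2, 3, 4 or 5 (adjusted p up to 0.0972). NOLC1, a nucleolar protein that assists ribosome assembly, was the 1 call of 22 ribosome biogenesis genes (0.96, SE 0.19, adjusted p = 0.00710). Over all 42 lists, 127 of 1076 rows tested were called, 29 lists had a called member and 15 had calls in both directions. Over all genes 1015 of 14333 (7.08%) were called, with 13.8% from 10 to 100 FPKM and 24.5% at 100 FPKM and over. Whether the lists differ from other genes of like abundance was not tested. Lower calls were in the majority in 22 lists and higher calls in 5, beside 532 lower and 483 higher calls over all genes.

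The shares of higher and lower calls varied between chromosomes, for rows placed on an autosome by symbol in ARS-UCD2.0, a later assembly than the one used. Over all tested genes 3.37% were called higher and 3.71% lower. The chromosomes named next had among the largest differences of the 29, and whether chromosomes differ was not tested. Some rest on few calls, such as 13 higher and 2 lower on chromosome 12. Lower calls took 6.96% of the 431 tested genes of chromosome 25, 6.75% of the 711 of chromosome 18 and 7.06% of the 340 of chromosome 29, where higher calls took 1.86%, 1.69% and 2.94%. On chromosomes 1, 6 and 12 the order was turned, with 5.03%, 5.56% and 5.94% higher against 1.68%, 1.54% and 0.913% lower. The median log2 fold change of all tested genes was -0.15 on chromosome 25 and -0.12 on chromosome 18, 0.075 on chromosome 1 and 0.082 on chromosome 12, and highest on chromosomes 27 (0.14) and 24 (0.10). It had the sign of the majority of calls on 25 of the 29 autosomes. On chromosome 8, with more higher calls, it was -0.012, on chromosome 14, with more lower calls, it was 0.049, and 2 autosomes had as many calls in each direction. Gene length and base composition differ between bovine chromosomes as well, and their part was not tested.

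**Figure D4:**
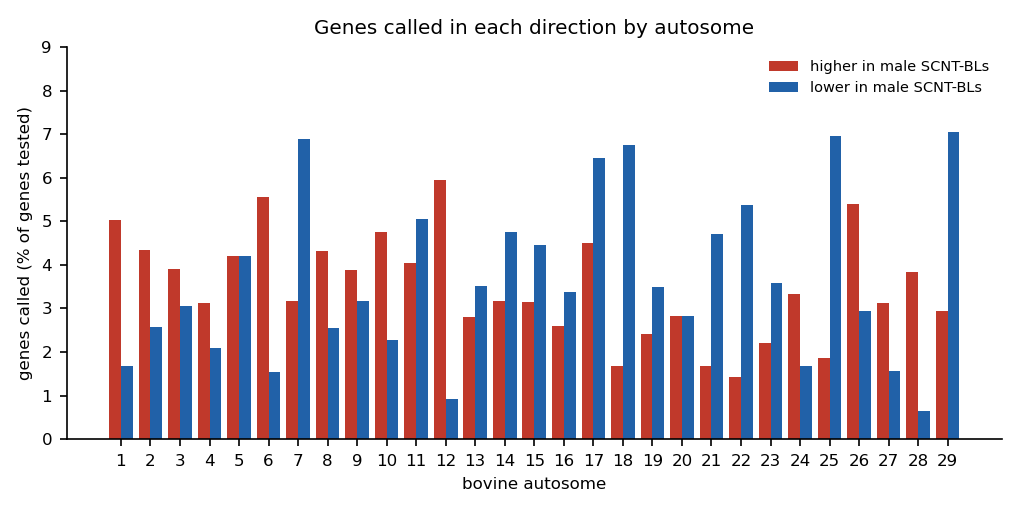
For each of the 29 bovine autosomes the bars give the percentage of its tested genes called higher (red) and lower (blue) in male SCNT-BLs. Chromosomes 7, 18, 21, 22, 25 and 29 have blue bars well above their red bars, and chromosomes 1, 6, 12 and 28 the reverse.

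In the female embryos the same comparison, fitted on its own, gave few calls. Of 14615 autosomal genes 30 were higher (0.205%) and 15 lower (0.103%), 45 in all (0.308%), with 1577 at an unadjusted p under 0.05 in limma, although the median standard error was alike, 0.32 in females and 0.30 in males. Female and male embryos share no sample in these comparisons. Of the 483 genes higher in males, 258 (53.4%) were higher in female SCNT-BLs too, beside 46.8% of all genes tested in both, and their median female shift was 0.032. Of 531 genes lower in males and tested in females, 302 (56.9%) were lower, beside 53.2% of all genes tested in both, with a median of -0.071. Called in both sets in the same direction were 8 higher genes (1.66% of the male and 26.7% of the female list) and 0 lower genes. At an unadjusted p under 0.05 in limma, 67 of the genes higher in males were higher in females and 21 were lower. Of the genes lower in males, 56 were lower in females by that measure and 20 were higher.

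The difference of the shifts was called for 286 of 14782 genes (1.93%), 125 with the higher shift in males (0.846%) and 161 with the lower (1.09%). Among the genes called in males these were 88 of the higher and 123 of the lower. This count rested on single embryos: it was 142 without male SCNT-BL 1, 188 without male SCNT-BL 5, 174, 183 and 175 without male IVF-BLs 1, 2 and 6 and 157 without female IVF-BL 3. POLR2L, which fell in males, ran from 111 to 265 FPKM (median 218) in female IVF-BLs and from 274 to 1022 FPKM (median 373) in female SCNT-BLs, so that the female groups were apart in the other direction, and the difference of the shifts was -3.62 (SE 0.41, adjusted p = 3.21e-05). KLF16 ran from 1.33 to 11.2 FPKM (median 5.22) and from 2.06 to 13.3 FPKM (median 8.74), with a difference of -3.17 (SE 0.62, adjusted p = 0.0101). S100A10, which encodes an annexin partner at the membrane, ran from 100.35 to 232 FPKM (median 145) among male IVF embryos, with male SCNT embryos from 241 to 650.196 FPKM (median 326), female IVF embryos from 152 to 557 FPKM (median 321) and female SCNT embryos from 62.8 to 301 FPKM (median 135) (2.40, SE 0.48, adjusted p = 0.0130). GPN3 ran from 2.93 to 8.40 FPKM (median 6.22) in female IVF-BLs and from 0.675 to 6.31 FPKM (median 3.56) in female SCNT-BLs (2.81, SE 0.54, adjusted p = 0.00994). Among the largest differences were also YAE1D1, PGRMC2 and ATP6V0B upward (3.61, 2.54 and 2.53) and MRPS2, ATP5D and KIAA0182 downward (-2.82, -2.80 and -2.55). Sex, flow cell and donor fibroblasts change together between the male and female embryos and cannot be told apart.

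**Figure D5:**
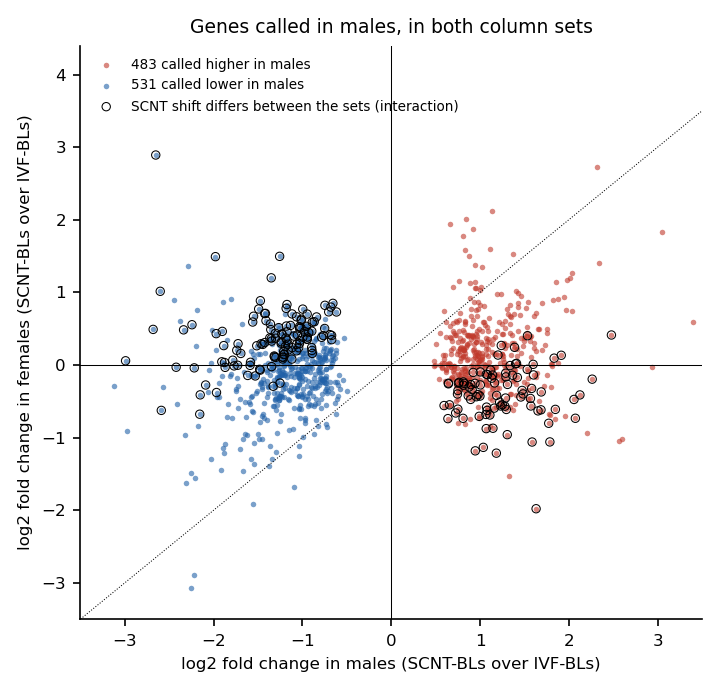
Each point is a gene called in males, with its log2 fold change of SCNT-BLs over IVF-BLs in males on the x axis and in females on the y axis, both on log2(FPKM + 1). Red and blue points were called higher and lower in males, and rings mark genes whose shift differed between the sets. Most points lie near 0 on the y axis, with medians of 0.032 and -0.071.

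How alike the embryos of a group were did not differ past the threshold between the 2 male groups. Across tested autosomal genes, pairs of IVF-BLs correlated at 0.903 to 0.930, pairs of SCNT-BLs at 0.912 to 0.951 and mixed pairs at 0.886 to 0.922 (Pearson's r on log2(FPKM + 1), a description of pairs of libraries). The distance of an embryo from the mean of the other 5 of its group, as a root mean square over genes on the log2 scale, was 0.720 ± 0.052 in IVF-BLs and 0.671 ± 0.047 in SCNT-BLs (SD, n = 6 each). The difference of -0.048 had p = 0.126 in a two-sided permutation test over all labelings, which can go no lower than 0.00216. Distances were not recomputed for each labeling, and those within a group depend on one another. The p-values of this test are therefore approximate. The difference was -0.078 (permutation p = 0.0130) without IVF-BL 2 and -0.075 (permutation p = 0.0260) without IVF-BL 5. It was -0.014 (permutation p = 0.641) without SCNT-BL 1.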

How the data were processed

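The authors extracted RNA from single blastocysts and from the donor fibroblasts, amplified poly-A RNA by pico-profiling PCR, sequenced paired ends on an Illumina HiSeq, and ran Trim Galore, TopHat2 and Cufflinks, with known transcripts only and the UMD3.1 genome. Further version numbers are not given in the sources used here. The deposited table holds FPKM, already scaled by the authors, for 22628 rows and 37 libraries, so neither read counts nor depth beyond relative steps are known. Columns were matched to samples by name, and groups came from the labels.

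The rows of the X chromosome block (999) and 19 other X- or Y-linked rows were set aside. Rows with a mean over 0.1 FPKM in the embryos of a fit were kept, 14906 for the male fit, and log2(FPKM + 1) was compared with limma 3.58.1 (lmFit, eBayes with trend) in R 4.3.3, with Benjamini-Hochberg adjustment over all rows fitted and a threshold of 0.05. Fold changes on this scale understate the change of low genes. SE is limma's moderated standard error and adjusted p the Benjamini-Hochberg value throughout. The female fit was separate, and the difference of the male and female shifts was an interaction term over all 24 embryos. Permutation tests were two-sided and ran over all labelings of the distances as first computed. The scripts were tested on simulated data.

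Genes named are the 10 largest changes in each direction that passed the threshold in every fit without 1 embryo, had groups that did not overlap and a symbol in 1 row, leaving out LOC symbols, then the called members of the lists, up to 4 further uncalled members for the 4 lineage lists only, and the 5 largest interactions in each direction. The gene lists and the comparison were chosen with earlier results of these data known. The labels do not say that embryos came from separate cultures, so p-values measure the spread between these embryos, which shared nuclei in the SCNT groups. Chromosome membership was taken by symbol from ARS-UCD2.0 and no coordinate was used. Alternatives changed the pseudocount, the filter, the scaling, the rows adjusted over, the variance prior, the block and the embryos in the fit. X-linked genes were not analysed here, and some genes that enter the counts are not reported by name here.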

Additional observations from a re-analysis of the deposited data

Results flagged for a closer look

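Single embryos stood apart from the other 5 of their group, by Dixon's ratio at the 95% level, in 25 of the 326 groups of 6 examined for the named genes, and chance alone flags about 1 in 20 groups. No explanation was tested for them. Each value below is followed by the median of the other 5 embryos. Male IVF-BL 1 had FPKM of 124 for RPS6 (others 169), 227 for EIF4H (others 166) and 5.04 for CRELD2 (others 12.5). Male IVF-BL 2 had FPKM of 274 for RPS9 (others 349.93). Male IVF-BL 4 had FPKM of 0 for TFPI (others 3.76), 86.9 for MRPL43 (others 129), 124 for TFAP2C (others 57.9), 57.7 for CLDN7 (others 170.34), 254 for JUP (others 214), 44.3 for PFKL (others 61.2) and 47.1 for DHCR7 (others 91.1). Male IVF-BL 5 had FPKM of 23.01 for PSMD3 (others 40.3). Male IVF-BL 6 had FPKM of 354 for NDUFA7 (others 210.49). Male SCNT-BL 1 had FPKM of 248 for RPL23A (others 474). Male SCNT-BL 2 had FPKM of 92.2 for SSLP1 (others 211), 3.38 for HIST1H2AD (others 0), 159 for RPL11 (others 89.4) and 67.5 for EIF6 (others 39.5). Male SCNT-BL 3 had FPKM of 3.48 for KLF17 (others 15.2) and 83.2 for HNRNPC (others 149). Male SCNT-BL 4 had FPKM of 46.9 for PTGES (others 6.15). Male SCNT-BL 5 had FPKM of 15.5 for MBD2 (others 7.46) and 7.58 for MRPL50 (others 32.1). Male SCNT-BL 6 had FPKM of 42.2 for SETDB2 (others 19.6) and 729.59 for RPS14 (others 4949.6).

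The shift between SCNT-BLs and IVF-BLs differed between male and female embryos for 39 of the named genes, by limma's interaction term with an adjusted p under 0.05. The value beside each gene is the male shift minus the female shift on the log2 scale. The male shift was the higher one for YAE1D1 (3.61), GPN3 (2.81), PGRMC2 (2.54), ATP6V0B (2.53), ANAPC10 (2.46), S100A10 (2.40), LDHA (2.27), GGPS1 (2.07), RPS3A (1.95), EIF3J (1.90), PSMA4 (1.85), RAP1A (1.78), TPD52L2 (1.74), HSPE1 (1.73), RPS20 (1.59), HSPA9 (1.40) and MRPS35 (1.20). It was the lower one for POLR2L (-3.62), KLF16 (-3.17), MRPS2 (-2.82), ATP5D (-2.80), KIAA0182 (-2.55), FAM100B (-2.39), MRPL43 (-2.18), CRELD2 (-2.13), MCM5 (-1.95), CARS (-1.56), KDM6B (-1.54), 1 of the 2 MCM4 rows, the one that fell in males (-1.51), EIF3D (-1.50), SCAP (-1.49), SMARCC2 (-1.49), KEAP1 (-1.44), NDUFA7 (-1.40), GSTP1 (-1.35), JUP (-1.35), DHCR7 (-1.33), FASN (-1.31) and QARS (-1.05). Sex, flow cell and donor cells cannot be told apart in these differences.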

How the results depend on the processing

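On the 12 male embryos the 483 higher and 532 lower calls were 465 and 526 with a pseudocount of 0.1, 574 and 654 with a filter of 1 FPKM, 391 and 447 with no filter, 468 and 540 with median-of-ratios scaling, 491 and 540 over autosomal rows only and 474 and 545 with a robust prior, and the 286 interactions were 284, 358, 237, 287 and 291 under the first 5. Leaving out 1 embryo gave 320 to 443 higher calls, 368 to 501 lower calls and 142 to 302 interactions. It also moved the difference in distance from -0.078 (permutation p = 0.0130) to -0.014. Without female IVF-BL 3 the interactions were 157. The distance also kept its sign with a pseudocount of 0.1 (-0.082), a filter of 1 FPKM (-0.047) and median-of-ratios scaling (-0.049). The permutation p-values of these were 0.104 to 0.188. The cause of these moves was not tested.

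Replicate numbers are shared by the groups, but the labels do not say that they pair embryos. Same-numbered IVF-BLs and SCNT-BLs had deviations from their group means that correlated at -0.11 to 0.044, and 0 of 6 IVF embryos correlated best with the SCNT embryo of its own number. With the replicate block the calls were 282 higher and 351 lower, with 91 interactions.

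Of the 163 named genes, 3 lost their call with a pseudocount of 0.1, 28 with no filter, 46 with the block, 2 with the robust prior and 19 to 39 without 1 embryo, while scaling and autosomal rows changed no call and the filter of 1 FPKM added 1. Uncalled lineage genes changed sign without single embryos: PAG2 ran from -0.60 to 0.53 on the log2 scale over these fits, SOX2 from -0.45 to 0.083, PDGFRA from -0.19 to 0.42, HNF4A from -0.35 to 0.79 and RSPO3 from -0.059 to 0.55. Read depth is unknown from FPKM, so a gene listed at 0 is not shown to be absent.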

Other observations

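Among the 8 autosomal genes called higher in both the male and the female SCNT-BLs, chosen after their values were seen, several kept an almost fixed ratio to each other from embryo to embryo although they lie on different chromosomes. AGTR1 (angiotensin receptor, chromosome 1) ran from 139.8 to 275 FPKM in the male IVF embryos and from 184 to 501 FPKM in male SCNT-BLs, with log2 fold changes of 0.81 in males and 1.78 in females. Its male call was lost in 9 of the 12 fits without 1 embryo, as were those of ZNF266 in 9, SP140L in 10, MOCS3 in 8 and CHRNA1 in 8. Over the 12 male embryos the ratio of SP140L (chromosome 2) to AGTR1 stayed between 0.907 and 1.14, that of ZNF266 (chromosome 7) between 1.05 and 1.40, and that of MOCS3 (molybdenum cofactor synthesis, chromosome 13) between 0.188 and 0.248. CHRNA1, an acetylcholine receptor subunit on chromosome 2, was looser, between 0.0358 and 0.0646. Whether reads from a shared repeat or another shared sequence enter these rows was not tested. LRRC3B (chromosome 27), the eighth gene with the largest male shift of this set, behaved otherwise, with a ratio to AGTR1 of 0 to 0.0585. It ran from 0 to 6.70 FPKM in the male IVF embryos and from 5.68 to 25.5 FPKM in male SCNT-BLs, with log2 fold changes of 2.32 (SE 0.51, adjusted p = 0.0124) in males and 2.73 (adjusted p = 0.0183) in females, in limma, and its male call held without each embryo.

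B3GNT6, a glycosyltransferase of mucin-type sugar chains, was the 1 gene called in both sets in opposite directions, and was also chosen after its values were seen. It ran from 3.20 to 125 FPKM (median 33.5) in the male IVF embryos and from 0.661 to 6.60 FPKM (median 2.63) in male SCNT-BLs, a log2 fold change of -2.65 (SE 0.76, adjusted p = 0.0470). In females it ran from 5.09 to 63.8 FPKM (median 17.3) in IVF-BLs and from 85.7 to 193 FPKM (median 150.2) in SCNT-BLs, a log2 fold change of 2.89 (adjusted p = 0.0355). The male call was lost in 10 of the 12 fits without 1 embryo.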
